A study of Mus musculus with 12 samples.

Results

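The small (40S) ribosomal subunit is built from one rRNA and a set of proteins. Most of their mouse genes carry the symbols Rps and a number, with Rpsa and Fau. All entries of the deposited CDS count table with such a symbol, together with Fau and the paralog Rps27l, were taken as members, which gave 33 genes of 20504. They comprise 14 proteins of the head and beak of the subunit, 18 proteins of its body and platform and the paralog. The rule used symbols only and no measured value, but it was set with earlier results of these data known. One member, Rps27, was at 0 CDS counts in every library, so that 32 members could be tested.

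The data comprise 12 libraries from the brain of 6 mice that were 3 months old, all from the cross of Camk2a-cre with RiboTag. In this cross the Camk2a promoter drives Cre in principal excitatory neurons of the forebrain, and Cre switches on a hemagglutinin-tagged copy of Rpl22, a protein of the large subunit. Mice A and B were given vehicle by gavage, which the labels call untreated. AZD-8055, a drug that occupies the ATP site of the kinase mTOR, was given to mice C and D at 100 mg/kg by oral gavage 1 h before sacrifice. From the right frontal lobe of each of these 4 mice, ribosome footprints were sequenced alongside RNA-Seq of poly(A) RNA. Mice E and F, labelled untreated, each gave an RNA-Seq library of homogenate (input) and of polysomes immunoprecipitated through the tag (IP). With 2 mice per group, p-values measure the spread between these mice only.

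Most mRNAs of ribosomal proteins begin with a terminal oligopyrimidine (TOP) tract, a C at the cap followed by a run of pyrimidines. Active mTOR complex 1 favors the translation of such mRNAs, through the 4E-BP proteins and LARP1, and its inhibition shifts them from polysomes to untranslated particles. The same kinase activates the S6 kinases, which phosphorylate the small-subunit protein Rps6.

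The bases around the annotated transcript starts of several members are shown because control by mTOR is thought to act through the tract. Its part in the changes given below was not tested. Of the 33 members, 25 had a start in the set of bases around transcript starts that was searched (GRCm38.p6, the same build as mm10). Rps14, Rps20, Rps27a and Rps29 were among those missing from this set, although all 33 members had an annotated gene position. Each window runs 5′ to 3′ from 10 bases before the start through the first 20 bases of the transcript. Capitals mark a C followed by at least 5 pyrimidines, which had to begin from 5 bases before to 10 bases after the start. Rps12, Rps2 and Rps18 were among the members with the largest response to AZD-8055, Rps6 is the S6 kinase substrate, Fau is a fusion gene and Rps23 had the lowest translation efficiency. The last 4 lines hold no run that begins between these positions, among them both annotated starts of Rps27l.
Rps12 (chr10:23787190-23787219, minus strand): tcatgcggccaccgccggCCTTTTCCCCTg
Rps2 (chr17:24720053-24720082, plus strand): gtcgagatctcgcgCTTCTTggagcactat
Rps18 (chr17:33955646-33955675, minus strand): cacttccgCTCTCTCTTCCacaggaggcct
Rps6 (chr4:86857348-86857377, minus strand): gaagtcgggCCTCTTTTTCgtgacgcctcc
Fau (chr19:6057937-6057966, plus strand): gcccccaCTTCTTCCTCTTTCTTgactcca
Rps23 (chr13:90923112-90923141, plus strand): cggctgggcggggCTTCCCgcaatgccttg
Rps13 (chr7:116334171-116334200, minus strand): caaacgtcggtgagtggcgtcacttcctgt
Rps15 (chr10:80292421-80292450, plus strand): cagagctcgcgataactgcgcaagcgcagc
Rps27l (chr9:66946076-66946105, plus strand): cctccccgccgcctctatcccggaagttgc
Rps27l (chr9:66946403-66946432, plus strand): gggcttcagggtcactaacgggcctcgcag

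A run was found, on the transcribed strand, at a start of 14 of the 25 members, at 16 of 40 large-subunit genes and at 4113 of 27025 genes in the set (15.2%). With at least 7 pyrimidines after the C, it was found for 10 members and for 6.65% of all genes. The run of Rps12 began 9 bases into the annotated transcript and that of Fau 3 bases before its start. Annotated starts can lie some bases from the true cap, and a window with no match says only that no run of this length began between these positions. Rps14 and the other members missing from the set were not searched.

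The libraries held 3503873 to 15585831 counts on CDS. Footprint libraries were the shallowest, with 3503873 in mouse C against 9259938 in mouse A. In mice E and F the IP raised 7 of 10 excitatory neuron markers (median log2 change 0.84, with Camk2a at 0.27, adjusted p = 0.11 by edgeR) and lowered 1, Cux2 (−0.54, adjusted p = 0.015). It lowered 10 of 10 markers each of inhibitory neurons (median −2.09), astrocytes (−2.90), oligodendrocytes (−2.99) and endothelial cells (−3.83), 7 of 8 of oligodendrocyte precursors (−2.76) and 9 of 10 of microglia (−3.20). None of these 68 markers passed the edgeR test in any comparison of AZD-8055 with vehicle. The tagged gene, Rpl22, was itself higher in the IP (0.77 ± 0.12, SE, adjusted p = 0.0016, edgeR). So were all 47 large-subunit genes tested (median 0.92, range 0.45 to 1.56), where 33.7% of 13254 genes were.

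The members took 1.04% and 1.05% of the RNA-Seq counts in the vehicle-treated mice A and B, and 1.04% and 1.01% in mice C and D, which had received AZD-8055. Of the footprints they took 0.458% and 0.447% in mice A and B and 0.242% and 0.248% in mice C and D. Both mice given AZD-8055 thus lay below both vehicle-treated mice in footprints, with the mean share 1.85-fold lower, while the RNA shares lay between 1.01% and 1.05% in all 4 mice. In mice E and F the members took 0.785% and 0.766% of the input counts and 1.44% and 1.41% of the IP counts.

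**Figure D1:**
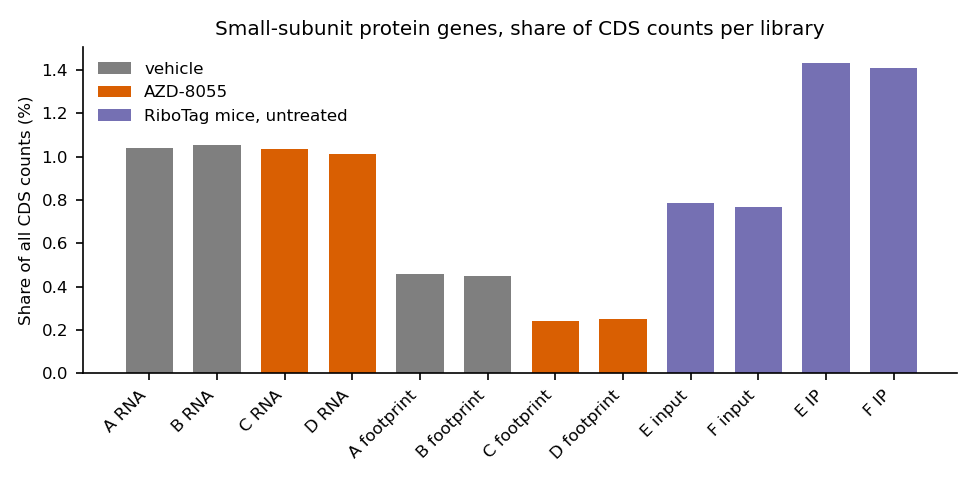
Share of all CDS counts (percent) that fell on the 33 small-subunit protein genes in each of the 12 libraries, one bar per library, named by mouse and kind of library. Footprint bars of mice C and D (0.242% and 0.248%) stand at about the same height, below those of mice A and B (0.458% and 0.447%), while the 4 RNA bars lie between 1.01% and 1.05%.

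The first question was how well these mRNAs are translated in the vehicle-treated brain. Translation efficiency (TE) is the ratio of footprints to RNA-Seq counts of a gene after scaling each library, given here as log2, so that a gene at the average of all genes lies near 0. The members were poorly translated: 30 of 32 had a TE below the average past the threshold (adjusted p under 0.05, edgeR quasi-likelihood test), where 36.9% of all 11891 genes did so. For 16 members the TE was lower by more than 2-fold, against 17.5% of all genes. Only Rps27l was called higher, where 36.6% of all genes were, and Rps13 was not called. The median fitted log2 TE of the members was −1.07, that of the 49 large-subunit genes tested was −0.81 and that of all genes was −0.01.

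This position depended on which RNA counts were used. With RNA-Seq reads counted on whole exons in place of CDS, the median of the members was −0.26. Of the members 17 were called lower, while 11 lay above 0 and 8 of these were called higher. Of all 12446 genes in this fit, 4766 were called lower and 4491 higher. The exon and CDS counts of a member were nearly the same number (median ratio 1.00), whereas over all genes the exon count was 1.57 times the CDS count, so that the average gene moves and the members do not. Rps15a was the member furthest from this, at 1.51 to 1.76.

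In the mean of mice A and B the members spanned a 10.4-fold range of TE. The lowest were Rps23, Rps12 and Rps2. Rps23, a protein next to the decoding center, had log2 TEs of −2.71 and −2.97 in mice A and B, which placed it at percentile 0.78 of 10882 genes. In counts scaled to the library total (CPM), its footprints were 40.4 and 34.1 beside 289 and 281 CPM of RNA. Rps12, a beak protein, followed at −2.32 and −2.20, and Rps2, which lies near the mRNA entry channel, at −2.24 and −2.22. These 2 genes did not differ beyond the spread between mice.

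At the other end, Rps25, a head protein used by several viral internal ribosome entry sites, had −0.31 and −0.39. Rps13, a protein of the body, had 0.07 and −0.07, at percentile 49.4. Rps27l, the paralog of Rps27 known as a p53 target, had 0.67 and 0.40, at percentile 73.4. Rps27l was also the member with the fewest RNA reads, 123 and 161 counts in mice A and B where the next lowest value was 1175, of Rps28. Together 26 of the 32 members lay under percentile 25 and 10 under percentile 10, with a median percentile of 13.0.

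The order of the members was alike in both vehicle-treated mice. The log2 TEs of mice A and B differed by 0.14 at the median and by at most 0.34, beside a standard deviation of 0.66 over the members. Across the 32 members, which share libraries and scaling, the values of these mice had a Pearson r of 0.99 and a Spearman rho of 0.97. Mice C and D gave 0.97 and 0.96.

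Many small-subunit genes have processed pseudogenes, and only reads with a unique position were counted. RefSeq lists 120 pseudogenes named after 24 of the members, with 23 for Rps12, 13 for Rps19 and 12 each for Rps2 and Rpsa. These 4 genes followed Rps23 at the low end of TE (mean log2 TEs of −2.26, −1.85, −2.23 and −1.75). For Rps23 the list holds 2 by name, and pseudogenes under other symbols were not counted for any member. Over 32 members the mean log2 TE had a Pearson r of −0.47 and a Spearman rho of −0.28 with the number of pseudogenes named after them. Whether reads lost to near-identical copies bear on these levels was not tested. The ubiquitin part of Rps27a is shared with other ubiquitin genes, which leaves its level uncertain too.

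**Figure D2:**
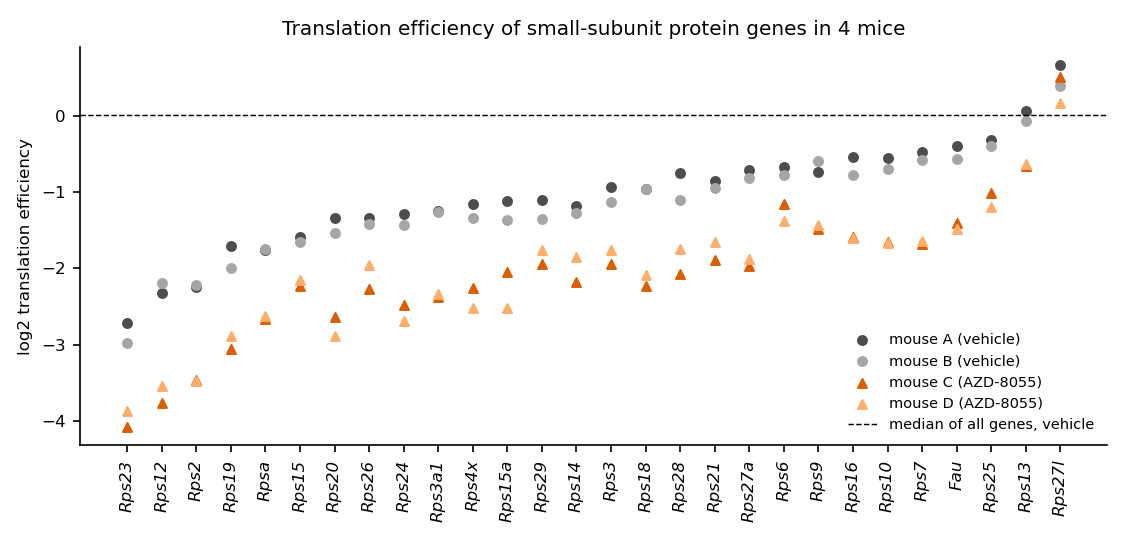
Log2 translation efficiency (y axis) of 28 of the 32 tested members (x axis, ordered by the mean of mice A and B), with circles for the 2 vehicle-treated mice, triangles for the 2 mice given AZD-8055 and a dashed line at the median of all genes in vehicle (0.02). All plotted members but Rps13 and Rps27l lie under the line in both vehicle-treated mice, and the triangles lie below the circles for every plotted member except Rps27l.

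The second question was how TE changes 1 h after AZD-8055. TE was called lower for 30 of the 32 members (adjusted p from 1.74e-05 to 0.024, edgeR interaction test), where 0.788% of 11797 genes were. The change of all 32 members lay below 0. TE was called lower by more than 2-fold for 14 members, against 0.297% of all genes. None rose. The median log2 change of the members was −0.95, beside −0.87 for 49 large-subunit genes and −0.01 for all genes. Scaling puts the average gene near 0, so that all changes with the drug are relative to it. A change shared by most genes would not show. Of the 93 genes called lower, 30 were small-subunit and 42 large-subunit genes. In 31 of 32 members both mice given AZD-8055 had a lower TE than both vehicle-treated mice, a pattern that 21.2% of 9890 genes showed.

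The 5 members with the largest falls were Rps12, Rps20, Rps2, Rps24 and Rps18. Footprints of Rps12 were 51.2 and 59.5 CPM in mice A and B and 18.6 and 22.7 CPM in mice C and D, while its RNA stayed between 269 and 286 CPM in all 4 mice. Its TE fell by 1.36 on the log2 scale (SE 0.14, adjusted p = 3.24e-05), or 2.57-fold. Rps20 (chr4:3831584-3835655), a head protein, had 73.9 and 67.7 CPM of footprints in vehicle and 29.97 and 25.4 CPM after the drug, a TE change of −1.34 ± 0.13 (SE).

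Footprints of Rps2 went from 127 and 130 CPM to 52.2 and 51.3 CPM (TE change −1.24 ± 0.11). Those of Rps24, a body protein mutated in some patients with Diamond-Blackfan anemia, went from 164 and 155 CPM to 71.9 and 63.7 CPM (−1.24 ± 0.11). Those of Rps18, which contacts the large subunit from the head, went from 109 and 114 CPM to 45.7 and 49.0 CPM (−1.19 ± 0.11). These 5 genes were picked as the largest falls, so that the lack of overlap between their groups is no separate support. Their TE changes lay within 0.17 of each other, close to the standard errors.

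Rps27l, Rps6, Rps15 and Rps29 were among the 5 members with the smallest changes. Rps6 had 312 and 295 CPM of footprints in mice A and B, the most of any member, and 212 and 192 CPM in mice C and D. Its TE fell by 0.55 (SE 0.11, adjusted p = 0.014), or 1.47-fold, and the groups did not overlap. Without any one of mice A, B, C or D, the fall of Rps6 missed the threshold (adjusted p from 0.075 to 0.37).

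Rps15, a head protein near the decoding site, fell by 0.57 (SE 0.10, adjusted p = 0.0071), from 150.2 and 149.6 CPM of footprints to 98.7 and 106 CPM. This call was lost without any one of the 4 mice (adjusted p from 0.057 to 0.22). Rps29 (chr12:69157722-69159186), a small zinc-binding head protein, went from 136 and 123 CPM to 79.3 and 88.2 CPM, and its TE fell by 0.63 (SE 0.12). With the mouse as a block, TE was called lower for 31 of the 32 members.

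Rps27l stood at the end of the order. It had 19.1 and 20.4 CPM of footprints in vehicle and 17.98 and 13.7 CPM after AZD-8055, from 63 to 177 counts per library. Its TE change was −0.18 ± 0.25 (adjusted p = 0.94), and its log2 TEs of 0.67 and 0.40 in vehicle overlapped those of 0.51 and 0.17 after the drug. The standard error is the largest of all members, so that a moderate fall was not detectable at this depth, and its difference from the other members was not tested.

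Fau and Rps27a are made as fusions, with a ubiquitin-like protein and with ubiquitin, and are cleaved after translation. Footprints of Fau were 203 and 201 CPM in vehicle and 114 and 115 CPM after the drug (TE change −0.96 ± 0.10, adjusted p = 4.96e-05). Those of Rps27a (chr11:29545842-29548040) were 199.5 and 196 CPM and then 82.2 and 92.0 CPM (−1.15 ± 0.11, adjusted p = 1.95e-05). Both genes lay within the range of the other members.

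By position in the subunit, TE was called lower for 13 of 14 head and beak proteins (median −1.001), and all 14 lay below 0. It was called lower for 17 of 17 tested body and platform proteins (median −0.89). Among the head and beak proteins not yet described, Rps19, another gene of Diamond-Blackfan anemia, fell by 1.12, Rps10 by 1.04, Rps28 by 0.96, Rps16 by 0.94, Rps3 by 0.82 and Rps25 by 0.75. Among those of the body and platform, Rps4x fell by 1.15, Rps23 by 1.14, Rps7 by 1.13, Rps3a1 by 1.10, Rps15a by 1.07, Rpsa by 0.89 and Rps21 by 0.84. The smaller falls there were 0.79 for Rps9, 0.78 for Rps14, 0.70 for Rps26 and 0.64 for Rps13. The standard errors of the 32 members lay between 0.096 and 0.25, so that neighbors in this order mostly do not differ beyond their error.

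Members with a pyrimidine run at an annotated start and members without one overlapped in their response. The 13 tested members with a run had a median TE change of −1.07 (range −1.36 to −0.55). The 11 with a start but no run had −0.89 (range −1.15 to −0.18). Single genes went both ways. Rps12, with the largest fall, had a run, and Rps27l, with the smallest, had none. Rps6, with a run, was among the smallest falls, and Rps4x, Rps7 and Rps3a1, with none in the window, were among the larger. A window with no run does not show that the mRNA lacks a TOP tract, and whether the run bears on the response was not tested.

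**Figure D3:**
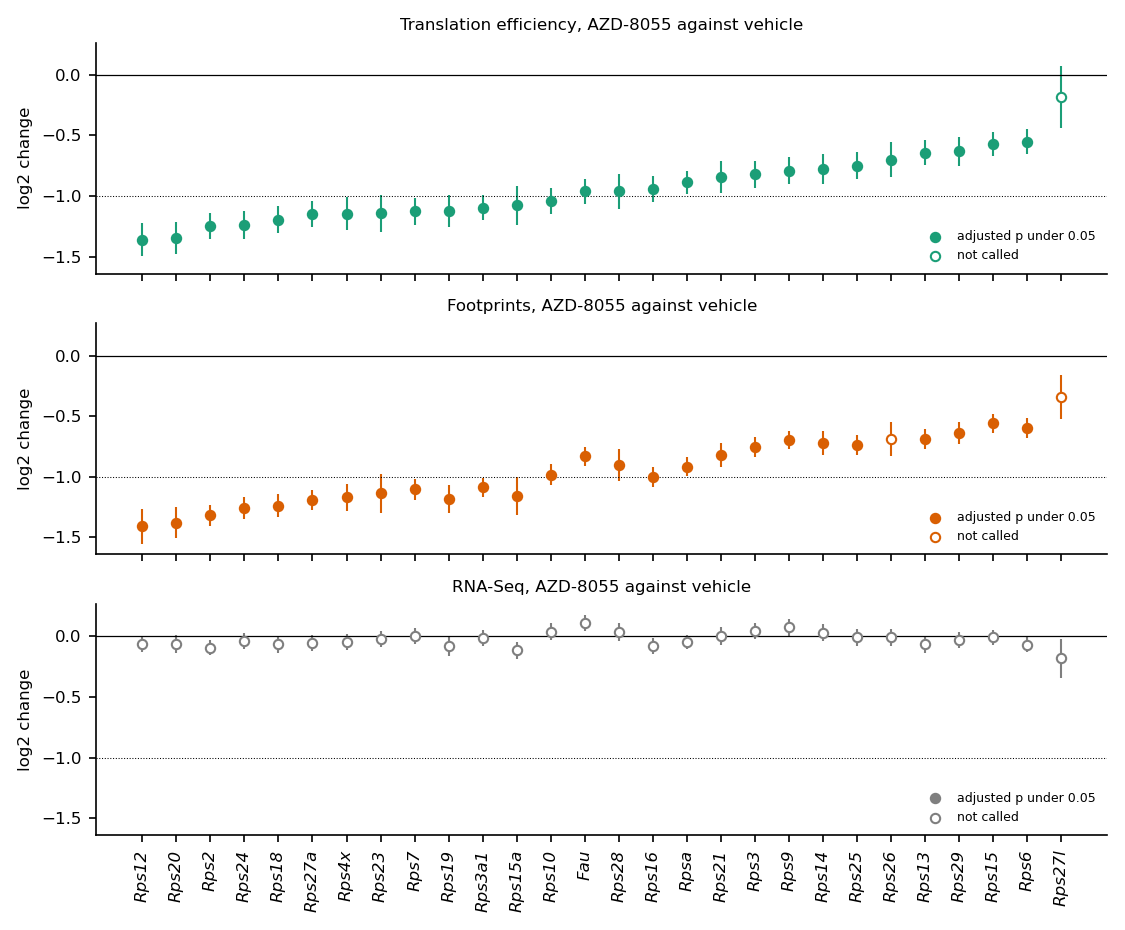
Log2 change (AZD-8055 against vehicle, 2 mice each) of TE, footprints and RNA for 28 of the 32 tested members in 3 panels with 1 scale, ordered by TE change, with bars for 1 standard error and filled points for adjusted p under 0.05. TE and footprint points run from about −1.4 at Rps12 to −0.18 and −0.34 at Rps27l, and the RNA points stay between −0.18 and 0.11.

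The change lay in the footprints. Footprints were called lower for 30 of the 32 members, where 0.982% of 10695 genes were. For 14 members they were lower by more than 2-fold, against 0.327% of all genes. The median change of the members was −0.92. The members not called were Rps26, a platform protein at the mRNA exit (−0.69 ± 0.14, adjusted p = 0.054), and Rps27l (−0.34 ± 0.18, adjusted p = 0.46). Footprints of Rps26 were 54.0 and 52.5 CPM in mice A and B and 28.0 and 37.8 CPM in mice C and D, with no overlap.

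RNA levels of the members did not pass the test in either direction, where 0.148% of 12182 genes did. Their log2 changes lay between −0.18 and 0.11, with a median standard error of 0.068, and none had an unadjusted p under 0.05. DESeq2 and limma-voom also called none. The highest values were those of Fau, from 290.5 and 312 CPM of RNA to 321 and 327 CPM (0.11 ± 0.07), and Rps9 (0.07 ± 0.07). Rps27l and Rps15a were among the 3 members with the lowest values, with Rps27l going from 13.1 and 16.3 CPM to 13.4 and 12.4 CPM (−0.18 ± 0.16) and Rps15a at −0.12 ± 0.07. The adjusted p was at least 0.65 for every member.

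**Figure D4:**
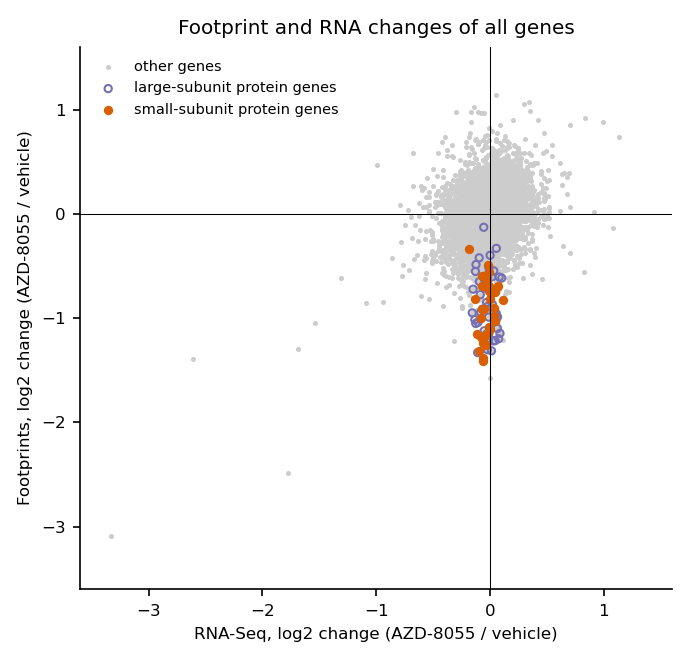
Log2 change of RNA-Seq (x axis) against log2 change of footprints (y axis) after AZD-8055, with 1 point per gene tested in both, small-subunit genes filled and large-subunit genes as open circles. Small-subunit genes form a vertical streak at RNA changes from −0.18 to 0.11 that reaches down to footprint changes of −1.41, and large-subunit genes lie in the same streak.

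Leaving out 1 mouse lowered the number of TE calls without turning any TE change. TE was called lower for 21 members without mouse A, 27 without B, 22 without C and 28 without D, and the median change lay between −1.03 and −0.88. Without mouse A or B fewer footprint falls were called, both of members and of all genes, and without C or D more. Each such fit leaves 1 mouse in a group, so that these calls do not show how stable the result is.

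Lists around the subunit were tested in the same fit. Of the other genes whose mRNAs are known to carry TOP tracts, 12 of 15 tested were called lower in TE (median −0.75). The largest changes were −1.59 for Eef1a1, −1.34 for Pabpc1, −1.26 for Eif3f and −1.17 for Eef2. Of 30 factors that assemble the 40S subunit, 1 was called lower and the median was −0.03. It was the endonuclease Nob1, which makes the final cut of the small-subunit rRNA (−0.83, adjusted p = 0.0054). Of 25 genes of the mTOR and S6 kinase pathway, 1 was called lower, Eif4b (−0.76, adjusted p = 0.00047), and the median was −0.06. Eif4b is an initiation factor and S6 kinase substrate that is also among the TOP genes. None of these lists held a gene with a rise in TE that passed the test.

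The last comparison set IP against input in mice E and F, where tagged ribosomes pull down the mRNAs they translate in Camk2a-expressing neurons. The members were enriched: 31 of 32 were higher in the IP on exon counts (edgeR), where 33.7% of 13254 genes were, and 5 were higher by more than 2-fold, against 11.7%. None was called lower, where 35.7% of all genes were, and none lay below 0 in edgeR, DESeq2 or limma-voom. The median log2 change was 0.87, beside 0.92 for 47 large-subunit genes and −0.03 for all genes. All 32 members lay above 0 in both mice. In such tissue samples a larger share of neurons and more of an mRNA per neuron cannot be told apart.

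Fau was the most enriched member, with 151 and 111 CPM on exons in the input of mice E and F and 307 and 228 CPM in the IP (1.31 ± 0.20, adjusted p = 0.0017). Rps23 went from 130.2 and 122 CPM to 245 and 225 CPM (1.17 ± 0.10). Both genes were picked as the most enriched, so that the lack of overlap between their input and IP libraries is no separate support. Rps23 thus combined the lowest TE of all members in mice A and B with the second highest enrichment in mice E and F.

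Rps12 was the least enriched. It had 122 and 116 CPM in the input and 110 and 113 CPM in the IP, and its log2 enrichment after scaling by size factors was 0.25 and 0.35 in mice E and F. The fitted change was 0.18 ± 0.09 (adjusted p = 0.11), which passed the threshold with the mouse as a block (adjusted p = 0.015) and turned to −0.094 (adjusted p = 0.38) when libraries were scaled by total counts. Rps15a, next in order, went from 124 and 140 CPM to 143 and 147 CPM (0.41 ± 0.09, adjusted p = 0.0088), and this call was lost with total counts (adjusted p = 0.28). Rps29 went from 140.3 and 136 CPM to 186 and 164 CPM (0.62 ± 0.11).

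Apart from the 3 highest and 3 lowest members, the tested members lay between 0.62 for Rps4x and 1.01 for Rps10, with Rps6 at 0.96, Rps27a at 0.95 and Rps27l at 0.82. Head and beak proteins had a median of 0.85 (13 of 14 called) and body and platform proteins one of 0.93 (17 of 17 called). The enrichment of a member differed between mice E and F by at most 0.31, and across the 32 members, which share libraries, the mice gave a Pearson r of 0.88 and a Spearman rho of 0.79. The log2 TE in mice A and B and the enrichment in mice E and F were only weakly related over these members (r = 0.27, rho = 0.38).

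The size of the enrichment depended on the reads counted. On CDS counts the median change of the members was 1.33 and 32 of 32 were called higher, where 4455 of 12211 genes were. Changes over 2-fold were also more common there, with 2493 genes higher in place of 1545 on exon counts. Over all genes the ratio of exon to CDS counts was 1.48 in the input and 1.90 in the IP, while that of the members was 1.00 in both. Scaling by total counts moved the median of all genes to −0.31 and that of the members to 0.59.

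The mTOR and 40S assembly lists did not follow the members. Of 30 assembly factors, 11 were higher and 6 lower in the IP (median 0.07), with 1.52 for Imp3 and −1.40 for Heatr1. Of 26 mTOR and S6 kinase genes, 7 were higher and 11 lower (median −0.22). Of 15 other TOP genes, 12 were higher and 1 lower (median 0.70), the latter being Pabpc1 (−0.59), a poly(A)-binding protein.

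**Figure D5:**
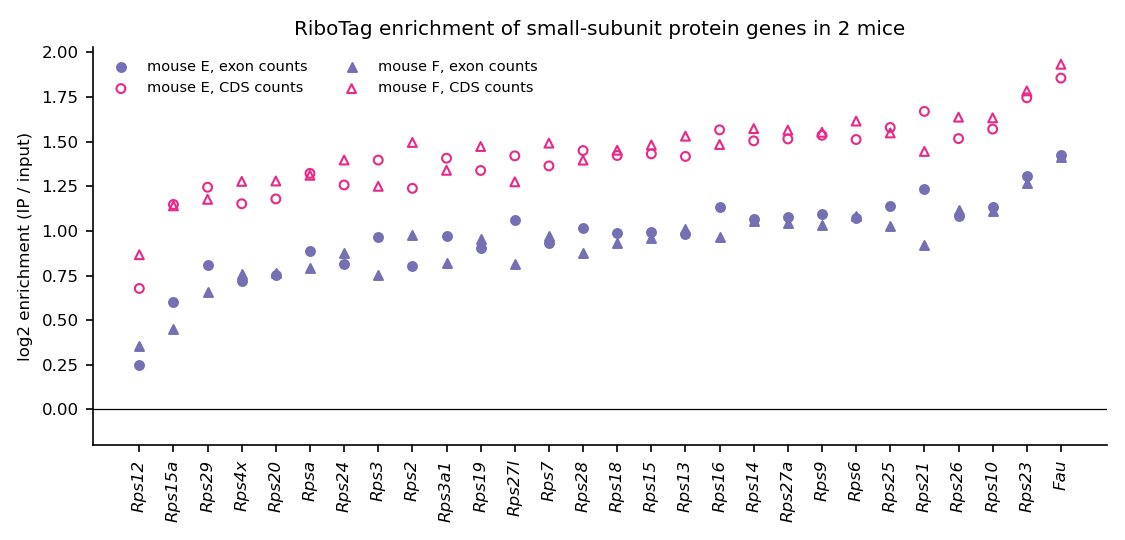
Log2 ratio of IP to input (y axis) for 28 of the 32 tested members (x axis, ordered by the fitted change on exons) in mouse E (circles) and mouse F (triangles), from exon counts (filled) and CDS counts (open). Every point lies above 0, with Rps12 lowest and Fau highest on both kinds of counts.

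Rps27 (chr3:90212667-90213648) could not be placed in TE or in the drug changes. It had 0 CDS counts in all 12 libraries, which allows a level of up to 0.192 CPM in the deepest and 0.856 CPM in the shallowest library, by counting error only (3 counts). On exons it had 11 to 20 counts in mice A to D, 25 and 23 in the input and 23 and 45 in the IP of mice E and F, below the threshold of 37 counts. RefSeq lists 2 pseudogenes named after it, and whether its reads were discarded for mapping to several places was not tested. A gene at 0 here is therefore not shown to be silent. A further entry, Rps4y2, was found in the exon table alone, with 138 to 385 counts per library, and is not a member.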

How the data were processed

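Ligation-free ribosome profiling, RNA-Seq and RiboTag polysome RNA-Seq were analysed from the raw read counts of each gene that the authors deposited. Counts on CDS cover all 12 libraries, and counts on exons cover 8 of them, all RNA-Seq. Per the study's methods, the authors trimmed footprint reads and clipped their poly(A) stretches, removed rRNA reads with Bowtie2, aligned with TopHat2 and counted uniquely mapped reads with HTSeq. The labels name mm10. The paper's RiboDiff was not available, so its question was put as an interaction in edgeR.

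Tests were the quasi-likelihood F-tests of edgeR 4.0.16 after TMM scaling. Genes entered a fit when their counts averaged 37 or more over its libraries, and p-values were adjusted over all genes of the fit (Benjamini-Hochberg) with a threshold of 0.05. A second call rule required a change over 2-fold. The standard error is the size of the log2 change divided by the square root of F. Fits used mice A and B for baseline TE, mice A to D for the drug, and exon counts of mice E and F for the IP. TE and enrichment per mouse used DESeq2 1.42.0 size factors and, for TE, 75 counts in both mice. CPM values are counts over the library total. R 4.3.3, limma 3.58.1, Python 3.11.15, numpy 2.4.6, pandas 2.3.3, scipy 1.17.1 and matplotlib 3.10.9 were used. The tests were run on simulated counts drawn separately for each library, with no effect of the mouse, which is unlike these data.

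Libraries with the same letter come from 1 animal. The gene-wise deviation of a mouse from its group in RNA-Seq went with that in footprints (r = 0.25 for mice A and B, r = 0.24 for C and D), and that in input with that in IP (r = 0.56 for E and F). Libraries of both mice of a group differed by more than counting error (chi-square per degree of freedom 2.61 to 9.53).

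The members, gene lists and tests were chosen with earlier results of these data known. Values per library are given for Rps6, the fusion genes, the paralog, the 5 largest and 5 smallest TE changes, the 3 highest and 3 lowest members in baseline TE and IP, the 3 largest RNA changes in each direction and the member below the count threshold. A few members are not reported by name and enter only counts, ranges and medians. Lists are head and beak, body and platform, 40S assembly, mTOR and S6 kinase, other TOP genes and cell type markers. Alternatives were DESeq2, limma-voom, 2 other scalings, 2 other count thresholds, exon or CDS counts exchanged, the mouse as a block and each mouse left out. No genome, CDS lengths or proteins were used here, so levels are not compared per length.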

Additional observations from a re-analysis of the deposited data

How the results depend on the processing

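The called falls in TE (30, with 14 over 2-fold) and in footprints (30) stayed within 1.5 times their value under each alternative that was run. So did the absence of RNA calls and the 31 called rises in the IP. When 1 mouse was left out, the number of footprint calls over all genes moved further than that of the members. The median TE change lay between −1.03 and −0.88. The baseline TE was the exception. With exon counts for the RNA-Seq libraries, 17 members in place of 30 were called lower, where 4766 of 12446 genes were, and the median was −0.26. The fitted log2 TE turned positive for members such as Fau (0.38), Rps6 (0.13), Rps7 (0.34), Rps9 (0.20), Rps10 (0.25), Rps16 (0.22), Rps25 (0.54) and Rps27a (0.11). The median baseline TE was −1.21 with total counts. Rps13, which lay at the average of all genes, was −0.087 with total counts, −0.064 with no count filter, and between −0.0027 and 0.092 with mouse A or mouse B left out. The median change in the IP was 0.59 with total counts, 0.96 with a threshold of 10 counts, 0.97 with none and 1.33 with CDS counts, and Rps12 turned to −0.094 with total counts. Total counts moved the median of all genes by −0.14 in the baseline TE and to −0.31 in the IP, where 33.6% of calls were higher in place of 48.5%.

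With the mouse as a block, TE was called lower for 31 members, by more than 2-fold for 14, baseline TE was lower for 30 and the IP was higher for 32. The block added 1 call in TE and that of Rps12 in the IP and changed no other call of a member. For footprints or RNA alone no paired analysis was possible because each mouse gave 1 library of the kind. Without 1 of mice E and F, or of A and B for the baseline TE, values had no test. DESeq2 gave no adjusted p for Rps23 and Rps27l in footprints and for Rps27l in TE, which were left out of its counts. The shallowest footprint library, of mouse C, had 55 counts for Rps23 and 65 for Rps12. Intervals for counts of 0 cover counting error only.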
